A study of Mus musculus with 6 samples.

Results

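Apoptosis in mammalian cells is set by the BCL2 family, whose pro-survival members hold back the pore-forming proteins BAX and BAK, and whose BH3-only members release them from that hold. An open pore lets cytochrome c and other factors leave the mitochondrion, so that APAF1 and caspase-9 can form the apoptosome, while inhibitor of apoptosis (IAP) proteins restrain caspases and death-receptor signaling. The transcription factor p53 controls several of these genes, and in adult heart muscle cells, which hardly divide, the pathway is studied mainly for its part in cell loss under ischemia. The genes described here are 36 named genes of this machinery, found by gene name among the 57010 genes of the count table: 10 pro-survival genes, 21 pro-death genes and 5 genes of the p53 axis and other regulators. Of the 36 genes, 35 had at least 10 counts in 3 or more libraries, and the same 35 were among the 14799 genes tested.

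RNA-seq was performed on primary neonatal mouse cardiomyocytes (NMCMs), isolated from C57BL/6 mice and separated from cardiac fibroblasts by differential adhesion. All 6 libraries came from cells under hypoxia (HO): 3 received vehicle (V1, V2 and V3) and 3 received β-sitosterol, a plant sterol (β-SITO; T4, T5 and T6), so each comparison is of β-SITO against vehicle within hypoxia, and no normoxic library was analysed. The dose and the length of treatment of these libraries are not given in the sources used here, and nothing says whether the libraries of a group came from separate cultures, so p-values measure the spread between these libraries, which may be technical. The names of the β-SITO libraries carry a letter that those of the vehicle libraries lack, and a separate preparation of the groups cannot be told apart from the treatment.

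Total counts were 16694734 to 17082129 in the vehicle libraries and 16962152 to 18460522 in the β-SITO libraries. Values below are in CPM, a gene's counts as a share of its library's total, scaled by TMM, edgeR's correction for library composition. The check of the cell type showed a mixed culture: 12 cardiomyocyte markers summed to 6368 to 7299 CPM with vehicle and 5273 to 8675 CPM with β-SITO, below the 8 fibroblast markers at 29833 to 31113 and 44413 to 45501 CPM. Within the β-SITO group, T4 stood apart in the cardiomyocyte sum, at 5273 CPM against 8604 in T5 and 8675 in T6. At an adjusted p under 0.05, 3 of the cardiomyocyte markers were higher with β-SITO, 2 lower and 7 did not pass. Of the fibroblast markers, 5 were higher, 2 lower (Dcn and Postn) and 1 did not pass. The fibroblast sum came mostly from Col1a1, Col1a2 and Col3a1, all higher. With vehicle these averaged 9099.6, 6799.6 and 10421.5 CPM, and with β-SITO 12196.6, 10215.3 and 18849.8 CPM. Macrophage markers (11 genes) summed to 1302 to 1432 CPM with vehicle and 2652 to 3255 CPM with β-SITO. Of these 11, 6 were higher, 3 lower and 2 did not pass. Of all tested genes, 33.0% were higher and 33.8% lower at the same threshold. Endothelial markers (6 genes, all higher) summed to 189.6 to 218.0 and 767 to 807 CPM, and smooth muscle markers (4 genes, all higher) to 546.5 to 589.5 and 1062 to 1243 CPM. Neutrophil markers (5 genes) summed to 14.7 to 16.0 and 3.32 to 5.55 CPM, nearly all of it from Csf3r (14.6 and 3.42 CPM on average), with Ly6g and Retnlg at 0 counts in all 6 libraries. Lymphocyte and erythroid markers stayed at or below 0.618 CPM in sum in every library. In bulk RNA, fewer cells of a type and less RNA per cell cannot be told apart, and the part of these shifts in the results below was not tested.

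Levels of apoptosis genes differed between β-SITO and vehicle in both functional camps. With β-SITO, Bcl2a1a, Bcl2a1d, Birc2 and Birc3 of the pro-survival genes fell by more than 2-fold, as did Bid, Bak1, Casp12 and Htra2 of the pro-death genes and Daxx, Cdkn1a and Mdm2 of the p53 axis and other regulators. Bmf, Bcl2l11 and Bik, all BH3-only genes, rose by more than 2-fold. Called as differentially expressed genes (DEGs; adjusted p under 0.05 by edgeR's quasi-likelihood test with more than 2-fold), 11 of the 35 tested genes were lower, against 10.1% of all tested genes, and 3 were higher, against 12.8% (22.8% in either direction). At an adjusted p under 0.05 alone, 20 were lower (33.8% of all tested genes) and 7 were higher (33.0%; either direction 66.8%), while 8 did not pass. Without T4, 11 genes were lower and 3 were higher as DEGs, and 16 and 7 at an adjusted p under 0.05. The median log2 fold change was -0.28 over the 35 genes and -0.01 over all tested genes. The CPM of the groups did not overlap for 20 genes that were lower and 7 that were higher, where 35.8% and 34.8% of all tested genes did the same (70.5% in either direction). The summed share of the 36 genes in all counts was 0.240 to 0.249% with vehicle and 0.151 to 0.155% with β-SITO.

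**Figure D1:**
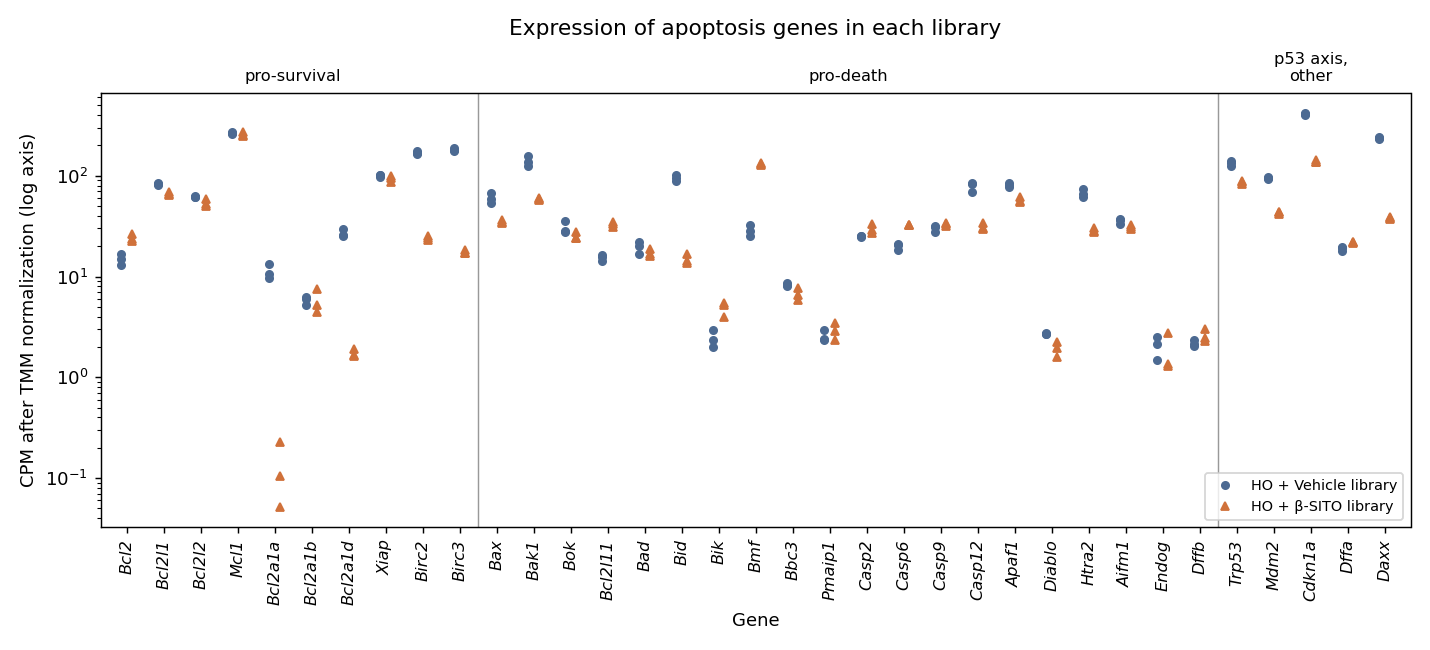
CPM on a log axis of each of the 35 tested genes in every library, with circles for the 3 HO + Vehicle libraries and triangles for the 3 HO + β-SITO libraries, split by role. The groups stand farthest apart for Bcl2a1a, Bcl2a1d, Birc3 and Birc2, lower with β-SITO, while the libraries of Mcl1 and Xiap overlap at 246.3 to 272.9 and 86.6 to 101.6 CPM.

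**Figure D2:**
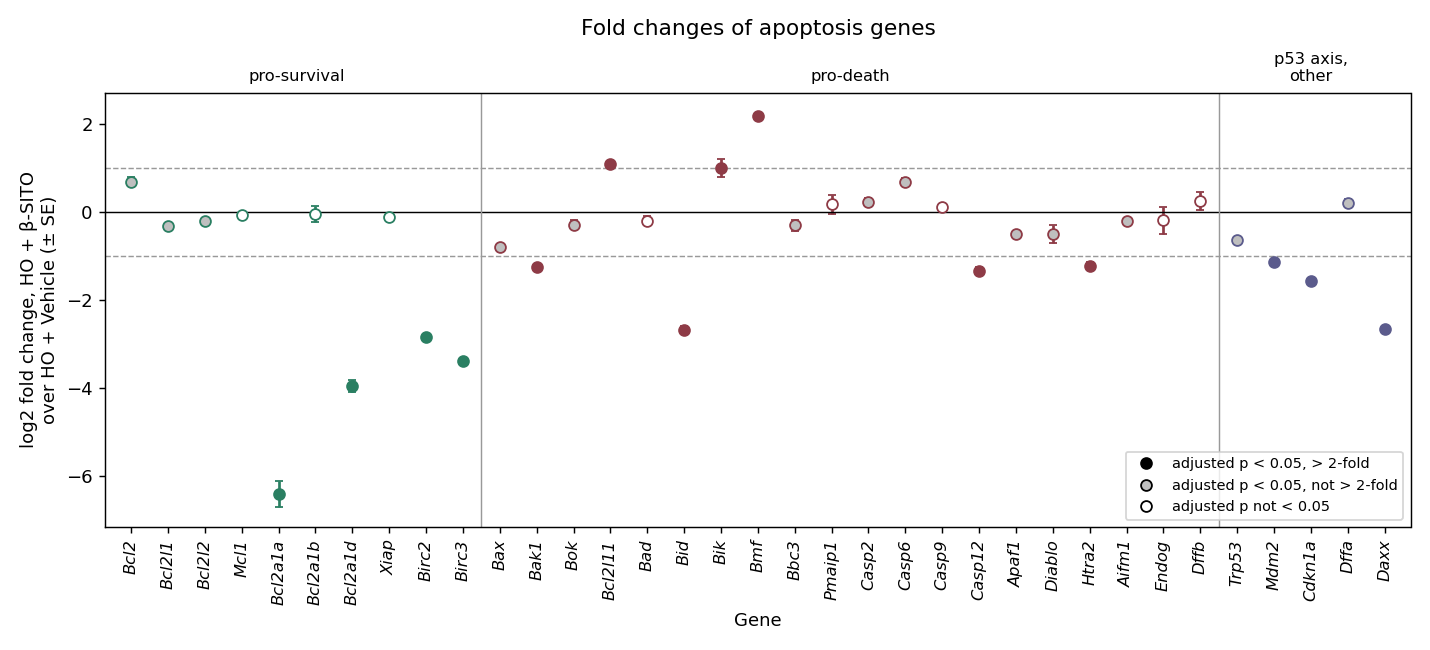
Log2 fold change of β-SITO over vehicle (points) with its standard error (bars) for each tested gene; dashed lines mark a 2-fold change, filled points the DEGs, grey points an adjusted p under 0.05 without a 2-fold change and open points the genes that did not pass. Fold changes run from -6.41 for Bcl2a1a to 2.19 for Bmf, and the 3 filled points above 0 are Bcl2l11, Bik and Bmf.

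Of the 7 pro-survival BCL2 genes, 4 were lower with β-SITO (33.8% of all tested genes), 1 was higher (33.0%) and 2 did not pass. Bcl2, the founding member, which guards the outer mitochondrial membrane, was at 16.9, 13.1 and 14.8 CPM in V1 to V3 and at 23.5, 26.5 and 22.6 CPM in T4 to T6. It rose 1.62-fold (log2 fold change 0.70 ± 0.10 SE, edgeR adjusted p = 1.98e-05), with every β-SITO library above every vehicle library. Bcl2l1, which encodes BCL-XL, was at 82.3, 81.9 and 84.4 CPM with vehicle and at 69.8, 66.4 and 64.1 CPM with β-SITO. It fell by 0.31 ± 0.06 on the log2 scale (edgeR adjusted p = 2.62e-04), again without overlap. Bcl2l2, which encodes the related BCL-W, was at 61.0, 61.4 and 62.8 CPM and at 49.8, 52.6 and 59.3 CPM. Its log2 fold change of -0.20 ± 0.07 passed (edgeR adjusted p = 0.0241), but the call was lost in 6 of 15 alternative analyses, and the value was -0.05 with scaling by library size only. Mcl1, a short-lived guard of BAK, had the highest level per length of the pro-survival genes. It was at 264.7, 258.8 and 272.9 CPM with vehicle and at 270.1, 253.6 and 246.3 CPM with β-SITO. The groups overlapped, and the log2 fold change of -0.05 ± 0.06 did not pass (edgeR adjusted p = 0.474, 95% interval -0.17 to 0.08).

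The mouse genome carries several near-identical copies of Bcl2a1 (A1), a pro-survival gene best known in blood cells and a target of NF-κB, and the 3 copies measured here lie on chromosome 9. On GRCm39, Bcl2a1a lies at 88838953 to 88844472 on the plus strand, Bcl2a1b at 89081262 to 89089880 on the plus strand, and Bcl2a1d at 88605338 to 88613967 on the minus strand. Their first 60 coding bases (GENCODE vM21) are shown because how far reads can be assigned to 1 copy depends on such differences. This stretch was chosen for having the most differing positions of any 60 coding bases, so the rest differs less. Capitals mark the 6 positions at which the copies differ.
Bcl2a1a: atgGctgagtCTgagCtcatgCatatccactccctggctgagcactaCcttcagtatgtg
Bcl2a1b: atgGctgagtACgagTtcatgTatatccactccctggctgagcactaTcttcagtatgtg
Bcl2a1d: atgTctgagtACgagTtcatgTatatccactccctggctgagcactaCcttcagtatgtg
Over the 519 coding bases, Bcl2a1a and Bcl2a1b differed at 11 bases (97.9% identity), Bcl2a1a and Bcl2a1d at 7 (98.7%), and Bcl2a1b and Bcl2a1d at 6 (98.8%). Windows of 150 bases in each transcript were compared with transcripts of the other copies and of Gm29094, which overlaps Bcl2a1b on the same strand. Of these windows, 28.2% for Bcl2a1a, 41.9% for Bcl2a1b and 30.3% for Bcl2a1d also occur unchanged in another transcript of this set. Windows shared with Gm29094 alone were not counted apart. The split of counts between the copies is therefore uncertain.

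Bcl2a1a had 153, 210 and 171 counts with vehicle and 1, 4 and 2 counts with β-SITO. In CPM these were 9.66, 13.2 and 10.6 against 0.0514, 0.225 and 0.104, without overlap. Summed over libraries, the 534 vehicle counts and 7 β-SITO counts gave a ratio of 89.9 at equal normalized depth, with an exact binomial 95% interval of 43.3 to 224.7 that covers counting error only. The fitted log2 fold change was -6.41 ± 0.30 (edgeR adjusted p = 3.13e-11), and it ranged from -7.01 to -6.04 when 1 library was left out. Bcl2a1a reached 10 counts in the vehicle libraries only. Its place among the tested genes, and so among the lower DEGs, rests on the group where it was higher.
Bcl2a1d had 400, 470 and 419 counts with vehicle and 37, 29 and 32 counts with β-SITO, at 26.9 ± 2.25 and 1.73 ± 0.147 CPM (SD, n = 3). It fell 15.4-fold (log2 fold change -3.95 ± 0.13, edgeR adjusted p = 3.20e-13). No such difference was detected for Bcl2a1b, with 82, 101 and 96 counts with vehicle and 145, 79 and 100 counts with β-SITO. Its groups overlapped, and the log2 fold change of -0.03 ± 0.18 did not pass (edgeR adjusted p = 0.909, 95% interval -0.41 to 0.36). Of the exon bases of Bcl2a1b, 49.1% are shared with Gm29094 on the same strand, which had at most 2 counts in any library. How reads in these shared bases were handled is not given, so the Bcl2a1b counts may leave them out. Summed over the 3 copies, an analysis chosen after the values were seen, counts were 635, 781 and 686 with vehicle and 183, 112 and 134 with β-SITO. The sum fell by 2.53 ± 0.13 on the log2 scale (edgeR adjusted p = 3.97e-11), from 43.9 ± 4.58 to 7.56 ± 1.63 CPM (SD, n = 3). Markers of the blood cells known for Bcl2a1 moved in different directions beside it. Of the macrophage markers, Mrc1 was higher at 11.8 and 325.2 CPM, as were Cd68, Csf1r, Lyz2, C1qa and C1qb. Fcgr1 (log2 fold change -2.18), Cd14 (-1.56) and Aif1 (-0.77) were lower, and Ptprc (-0.03) and Adgre1 (-0.06) did not pass. Of the neutrophil markers, Csf3r was lower (-2.08), and S100a8 and S100a9 were below 1 CPM in every library and were not tested. The part of these cells in the result for Bcl2a1 was not tested.

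**Figure D3:**
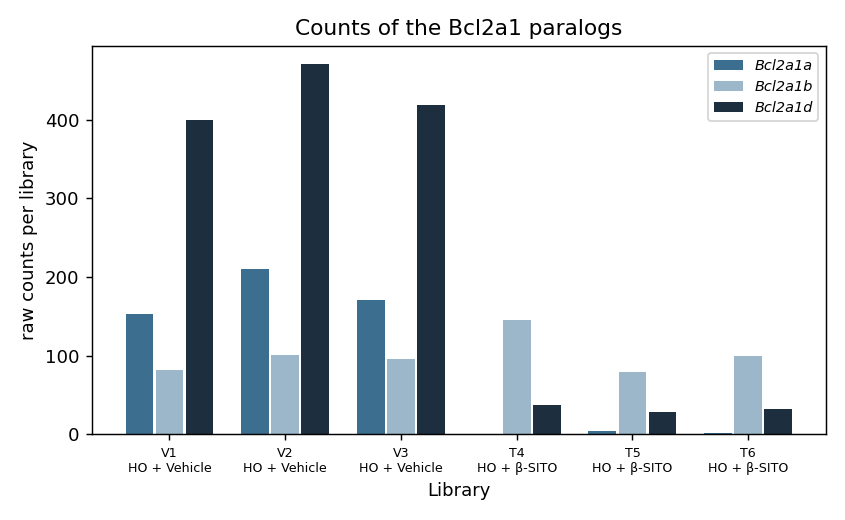
Raw counts (bars) of Bcl2a1a, Bcl2a1b and Bcl2a1d in each of the 6 libraries. Bcl2a1d is the tallest bar with vehicle at 400 to 470 counts, and Bcl2a1b is the tallest with β-SITO at 79 to 145 counts.

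A stretch of 80 bases upstream of each copy was likewise nearly the same in the 3 copies. For Bcl2a1b and Bcl2a1d it was picked as the best match to the Bcl2a1a stretch, so close identity was favoured by the choice. The other upstream bases were not compared. These 80-base stretches (RefSeq promoters, GRCm38.p6) end 0, 44 and 0 bases before the annotated gene starts of Bcl2a1a, Bcl2a1b and Bcl2a1d, at chr9:88956840-88956919 (plus), chr9:89199149-89199228 (plus) and chr9:88731851-88731930 (minus). Capitals mark the 2 positions at which they differ.
Bcl2a1a: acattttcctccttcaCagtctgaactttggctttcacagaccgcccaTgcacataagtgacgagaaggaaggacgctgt
Bcl2a1b: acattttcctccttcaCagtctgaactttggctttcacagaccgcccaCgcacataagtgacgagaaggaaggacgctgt
Bcl2a1d: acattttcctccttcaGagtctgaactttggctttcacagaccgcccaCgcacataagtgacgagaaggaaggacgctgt

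Among the 3 IAP genes, Birc2 and Birc3 fell with β-SITO and Xiap did not pass. Birc2 and Birc3 encode the ubiquitin ligases cIAP1 and cIAP2, which hold TNF-receptor signaling in a pro-survival state, and the genes are neighbours on the minus strand of chromosome 9 (GRCm39, 7818228 to 7837065 and 7848700 to 7873187). Birc2 was at 165.7, 169.1 and 176.6 CPM with vehicle and at 22.9, 25.1 and 24.2 CPM with β-SITO. It fell 7.09-fold (log2 fold change -2.83 ± 0.06, edgeR adjusted p = 5.73e-15), with a wide gap between the groups. Birc3 was at 180.9, 176.9 and 190.7 CPM and at 18.2, 17.1 and 17.1 CPM. It fell 10.5-fold (log2 fold change -3.39 ± 0.07, edgeR adjusted p = 1.07e-15). Xiap, which encodes a direct inhibitor of caspases, was at 100.9, 98.2 and 101.6 CPM with vehicle and at 94.8, 98.6 and 86.6 CPM with β-SITO. The groups overlapped (log2 fold change -0.10 ± 0.06, edgeR adjusted p = 0.154, 95% interval -0.24 to 0.03). Over all 10 pro-survival genes, 6 were lower (4 of them DEGs), 1 was higher and 3 did not pass. Their median log2 fold change was -0.25. Of all tested genes, 33.8% were lower (10.1% as DEGs) and 33.0% higher.

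All 3 pore-forming effector genes were lower with β-SITO (33.8% of all tested genes). Bak1, which encodes BAK of the outer mitochondrial membrane, was at 138.6, 155.8 and 124.2 CPM with vehicle and at 60.0, 57.4 and 59.0 CPM with β-SITO, and fell 2.37-fold (log2 fold change -1.25 ± 0.08, edgeR adjusted p = 9.22e-10). Its exons share 25.5% of their bases with the opposite-strand gene Ggnbp1, which had 5 to 16 counts. Whether reads in these shared bases were counted is not given. Bax was at 58.2, 68.1 and 54.3 CPM with vehicle and at 33.6, 34.6 and 36.3 CPM with β-SITO. It fell 1.73-fold (log2 fold change -0.79 ± 0.08, edgeR adjusted p = 5.60e-07), without overlap. Bok, a less studied relative of both, was at 28.0, 35.5 and 27.6 CPM and at 27.4, 23.9 and 23.9 CPM. The nearest libraries of the groups were almost level, and the log2 fold change of -0.28 ± 0.10 (edgeR adjusted p = 0.0232) lost its call in 5 of 15 alternatives.

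The BH3-only genes, whose products start the pathway by binding the other BCL2 proteins, moved in both directions. Of the 7 tested, 3 were higher (33.0% of all tested genes), 2 were lower (33.8%) and 2 did not pass. Their median log2 fold change was 0.18. Bmf, whose product is held at the cytoskeleton until stress releases it, was at 32.2, 28.5 and 25.2 CPM with vehicle and at 129.7, 127.5 and 133.9 CPM with β-SITO. It rose 4.56-fold (log2 fold change 2.19 ± 0.08, edgeR adjusted p = 1.27e-12), more than any other of the 35 genes. Bcl2l11, which encodes BIM, a strong binder of all pro-survival BCL2 proteins, was at 15.8, 14.2 and 16.5 CPM with vehicle and at 31.2, 33.3 and 34.6 CPM with β-SITO. It rose 2.13-fold (log2 fold change 1.09 ± 0.08, edgeR adjusted p = 1.64e-08), and its groups were far apart. Bik, whose product sits mainly at the endoplasmic reticulum, had few counts, 37, 47 and 32 with vehicle and 77, 98 and 101 with β-SITO. The groups did not overlap, at 2.42 ± 0.487 and 4.91 ± 0.833 CPM (SD, n = 3), and the log2 fold change was 1.01 ± 0.20 (edgeR adjusted p = 3.49e-04). Bik stayed past an adjusted p of 0.05 without any 1 library (log2 fold change 0.91 to 1.18), but it fell below 2-fold without V3 (0.91), T5 (0.96) or T6 (0.97). Tested directly against a 2-fold change with glmTreat, Bmf alone of the 3 passed.

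Bid, which links death receptors to the mitochondrion once caspase-8 has cut its product, was at 89.1, 95.1 and 102.3 CPM with vehicle and at 16.8, 13.5 and 14.3 CPM with β-SITO. It fell 6.42-fold (log2 fold change -2.68 ± 0.09, edgeR adjusted p = 3.53e-13), opposite in direction to Bmf, Bcl2l11 and Bik. Of its exon bases, 17.7% are shared with the opposite-strand gene Bcl2l13, which had 973 to 1190 counts in every library. Bbc3, which encodes the p53 target PUMA, was at 8.59, 8.21 and 8.06 CPM and at 6.58, 7.70 and 5.88 CPM. Its log2 fold change of -0.30 ± 0.13 passed narrowly (edgeR adjusted p = 0.0499), and the call was lost in 13 of 15 alternatives. Pmaip1, which encodes the p53 target NOXA, was at 2.97, 2.32 and 2.42 CPM and at 3.44, 2.36 and 2.91 CPM. Its groups overlapped and it did not pass (log2 fold change 0.18 ± 0.21, edgeR adjusted p = 0.452, 95% interval -0.26 to 0.63). Bad, whose product is switched off by survival kinases, was at 20.3, 22.2 and 16.9 CPM and at 16.9, 16.1 and 18.8 CPM. It also overlapped (log2 fold change -0.19 ± 0.11, edgeR adjusted p = 0.117, 95% interval -0.42 to 0.03), although it passed without V3 (edgeR adjusted p = 0.0317), and 20.5% of its exon bases are shared with Gpr137 on the opposite strand. Hrk, a BH3-only gene known from neurons, had 2 counts in V2 and 0 in the other libraries and was not tested. A count of 0 allows up to 0.189 CPM at these depths.

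Of the caspases and the apoptosome scaffold, 2 genes were lower (33.8% of all tested genes), 2 were higher (33.0%) and 1 did not pass. Casp12, a rodent caspase linked to stress of the endoplasmic reticulum, was at 68.7, 84.3 and 82.2 CPM with vehicle and at 34.1, 30.1 and 29.4 CPM with β-SITO. It fell 2.51-fold (log2 fold change -1.33 ± 0.09, edgeR adjusted p = 2.00e-09). Apaf1, which encodes the scaffold that activates caspase-9, was at 81.9, 77.3 and 85.6 CPM and at 61.9, 56.4 and 54.8 CPM. It fell by 0.50 ± 0.07 on the log2 scale (edgeR adjusted p = 8.78e-06), whereas its partner Casp9 did not pass. Casp9 was at 31.6, 30.9 and 27.7 CPM with vehicle and at 33.8, 33.1 and 31.5 CPM with β-SITO, with groups that overlapped by a narrow margin (log2 fold change 0.12 ± 0.08, edgeR adjusted p = 0.159, 95% interval -0.04 to 0.29). Casp6, which encodes an executioner caspase, was at 18.4, 20.6 and 21.2 CPM and at 32.4, 32.7 and 32.2 CPM. It rose 1.61-fold (log2 fold change 0.69 ± 0.08, edgeR adjusted p = 1.39e-06), and the β-SITO libraries were nearly identical to each other. Casp2, an initiator tied to mitotic and DNA stress, was at 25.2, 25.5 and 24.4 CPM and at 29.0, 32.9 and 26.9 CPM. Its rise was small (log2 fold change 0.24 ± 0.08, edgeR adjusted p = 0.0208), with a call lost in 1 of 15 alternatives.

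Of the 4 genes for proteins released from mitochondria, Htra2, Diablo and Aifm1 were lower (33.8% of all tested genes) and Endog did not pass. Htra2, which encodes a serine protease that removes IAPs, was at 65.2, 73.3 and 61.8 CPM with vehicle and at 30.1, 28.4 and 27.8 CPM with β-SITO. It fell 2.32-fold (log2 fold change -1.22 ± 0.08, edgeR adjusted p = 1.29e-09). However, 43.7% of its exon bases are shared with the opposite-strand genes Aup1 and Loxl3. Loxl3 had 3593, 3758 and 3546 counts with vehicle and 1269, 1228 and 1260 with β-SITO, and Aup1 had 1188 to 1321 and 840 to 961. Whether strand was used in the counting is not given in the sources used here, and the part of both genes in the value for Htra2 was not tested.
Diablo, which encodes the IAP antagonist SMAC, had 43 counts in every vehicle library and 31, 40 and 37 counts with β-SITO. Its log2 fold change of -0.49 ± 0.21 passed narrowly (edgeR adjusted p = 0.0491), the call was lost in 11 of 15 alternatives, and 40.9% of its exon bases are shared with other genes. Aifm1, which encodes apoptosis-inducing factor, was at 36.6, 33.5 and 37.4 CPM and at 29.7, 32.4 and 31.3 CPM. This small difference (log2 fold change -0.20 ± 0.07, edgeR adjusted p = 0.0241) lost its call in 8 of 15 alternatives. Endog, which encodes a mitochondrial nuclease, was at 2.53, 2.13 and 1.49 CPM and at 1.28, 1.35 and 2.76 CPM. Its groups overlapped over their whole range (log2 fold change -0.18 ± 0.31, edgeR adjusted p = 0.620, 95% interval -0.84 to 0.47), and 35.7% of its exon bases are shared with Spout1.

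The nuclease that cuts DNA between nucleosomes and its inhibitor gave small differences. Dffb, the nuclease gene, was at 2.34, 2.13 and 2.05 CPM with vehicle and at 2.31, 2.47 and 3.02 CPM with β-SITO, and did not pass (log2 fold change 0.26 ± 0.20, edgeR adjusted p = 0.272, 95% interval -0.17 to 0.70). Dffa, the gene of its inhibitor and chaperone, was at 19.0, 18.0 and 19.5 CPM and at 21.6, 22.1 and 22.1 CPM. It rose by a log2 fold change of 0.22 ± 0.08 (edgeR adjusted p = 0.0211), without overlap, and the call was lost in 3 of 15 alternatives. Over the 20 tested pro-death genes, 10 were lower (4 of them DEGs), 5 were higher (3 of them DEGs) and 5 did not pass. Their median log2 fold change was -0.20. Of all tested genes, 33.8% were lower (10.1% as DEGs) and 33.0% higher (12.8% as DEGs). The count of 10 was 6 without T6, with upper-quartile scaling and with scaling by library size only. It was 6 to 8 over the 6 analyses that left out 1 library each.

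Of the 5 genes of the p53 axis and other regulators, 4 were lower with β-SITO, 3 of them as DEGs, and Dffa was higher. Their median log2 fold change was -1.14. Of all tested genes, 33.8% were lower (10.1% as DEGs) and 33.0% higher. Trp53 itself was at 134.9, 141.5 and 124.3 CPM with vehicle and at 85.8, 87.9 and 82.9 CPM with β-SITO. It fell 1.56-fold (log2 fold change -0.64 ± 0.06, edgeR adjusted p = 2.39e-07), without overlap. Mdm2, a p53 target whose product marks p53 for degradation, was at 92.3, 95.2 and 96.3 CPM and at 43.3, 41.7 and 43.4 CPM. It fell 2.21-fold (log2 fold change -1.14 ± 0.06, edgeR adjusted p = 1.28e-10), a change that sat at the 2-fold limit with scaling by library size only (log2 fold change -1.0). Cdkn1a, the p53 target that encodes the cell cycle inhibitor p21, was at 424.0, 413.2 and 401.0 CPM with vehicle and at 137.5, 137.4 and 142.6 CPM with β-SITO. It fell 2.97-fold (log2 fold change -1.57 ± 0.06, edgeR adjusted p = 1.44e-12), with a spread between libraries far smaller than the gap. Daxx, whose product is a histone chaperone first found as a partner of the death receptor Fas, was at 236.6, 245.2 and 232.4 CPM and at 37.7, 39.3 and 37.0 CPM. It fell 6.26-fold (log2 fold change -2.65 ± 0.06, edgeR adjusted p = 5.59e-15), more than any other gene outside the pro-survival group except Bid.

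Ratios of counts between 2 genes in the same library do not depend on how libraries are scaled. They are not corrected for gene length, so they show a change between groups and not which gene has more transcripts. Bcl2 to Bax, a ratio often quoted as a balance of survival and death, was 0.290, 0.192 and 0.273 with vehicle and 0.701, 0.765 and 0.624 with β-SITO. Its mean was 0.252 ± 0.0521 and 0.697 ± 0.0704 (SD, n = 3), with Bcl2 higher and Bax lower. Bcl2l1 to Bax was 1.39 ± 0.177 and 1.92 ± 0.157, where both genes were lower with β-SITO and Bax by more. Per kilobase of exon, Bcl2l1 was below Bax in both groups. The levels were 18.1 against 38.2 CPM with vehicle and 14.6 against 22.1 CPM with β-SITO. Mcl1 to Bax was 4.46 ± 0.619 and 7.39 ± 0.633. Mdm2 to Trp53 went the other way, at 0.711 ± 0.0557 with vehicle and 0.501 ± 0.0247 with β-SITO. For each of these 4 ratios the groups did not overlap, which for single genes held for 70.5% of all tested genes. Of the ratios, 3 share Bax, which was lower, and Mcl1 itself overlapped between the groups. The ratios are given as a description, since 3 libraries against 3 cannot give an exact permutation p below 0.1.

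**Figure D4:**
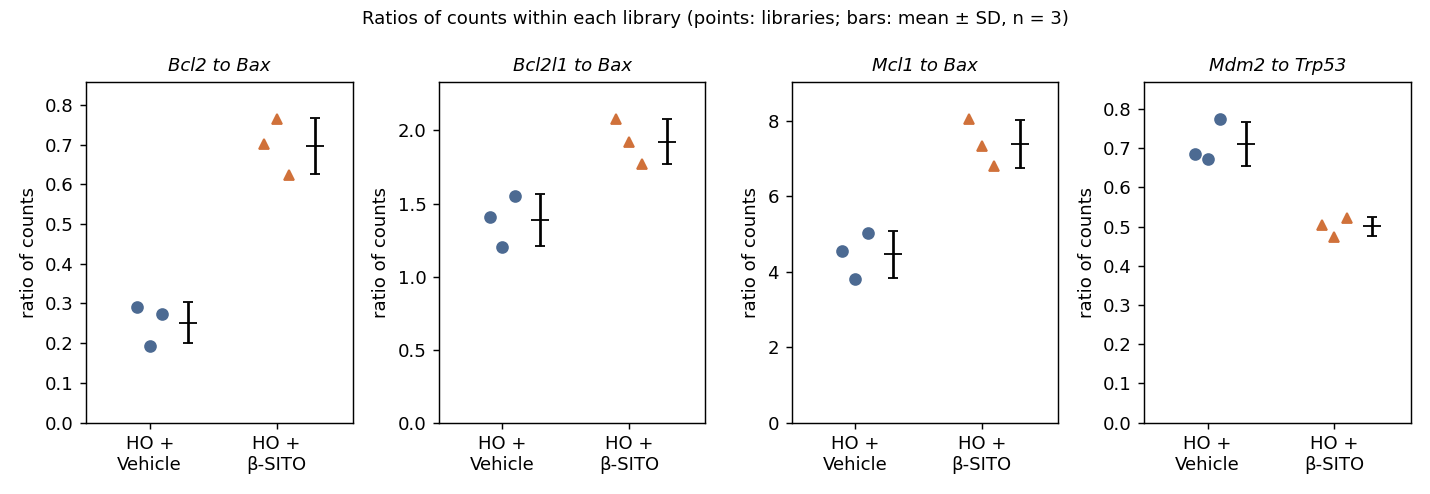
Ratio of counts within each library for Bcl2 to Bax, Bcl2l1 to Bax, Mcl1 to Bax and Mdm2 to Trp53 (points, libraries; bars, mean ± SD, n = 3), each axis starting at 0. The first 3 ratios are higher in every β-SITO library than in any vehicle library, and Mdm2 to Trp53 is lower.

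Between genes, levels were compared as CPM per kilobase of exon. With vehicle, Cdkn1a had the highest level at 116.2 ± 3.24, followed by Mcl1 at 77.7 ± 2.07, Daxx at 75.6 ± 2.07 and Bak1 at 58.0 ± 6.57 CPM per kilobase (SD, n = 3), and Mcl1 and Daxx did not differ beyond their spread. With β-SITO, Mcl1 led at 75.1 ± 3.57, followed by Cdkn1a at 39.2 ± 0.829, Bmf at 24.8 ± 0.614, Bak1 at 24.4 ± 0.528 and Bax at 22.1 CPM per kilobase. Bmf and Bak1 lay within their spread of each other. Among the 36 genes, Bmf moved from rank 24 with vehicle (5.45 CPM per kilobase) to rank 3. Birc2 moved from rank 6 to 22 (37.2 to 5.25 CPM per kilobase), Birc3 from rank 7 to 26 (36.5 to 3.49) and Bcl2a1d from rank 9 to 30 (31.2 to 2.01).

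**Figure D5:**
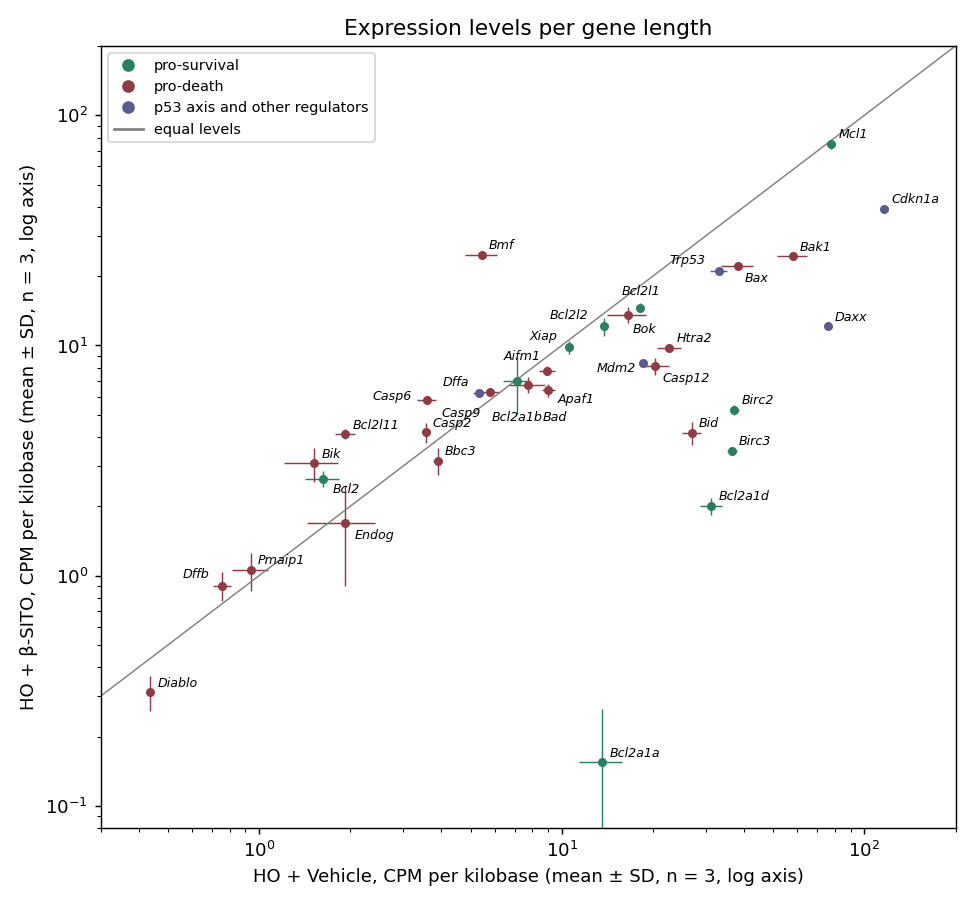
Mean CPM per kilobase of exon of each tested gene with β-SITO (y axis) against vehicle (x axis), both log axes, with bars for the SD of 3 libraries and a line of equal levels. Bmf lies well above the line, Mcl1 lies on it at the upper right, and Bcl2a1a, Bcl2a1d, Birc2, Birc3, Bid and Daxx lie well below it.

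Other genes of the pathway, taken from fixed lists, give the surroundings of these changes. Among other caspases, Casp1, Casp4 and Casp8 were lower with β-SITO. Casp4, which senses intracellular lipopolysaccharide, went from 116.2 to 5.53 CPM (log2 fold change -4.39, edgeR adjusted p = 4.47e-14), and Casp1, the inflammasome caspase, from 14.9 to 4.78 CPM (-1.64, 5.33e-08). Casp8, the death-receptor initiator, went from 44.8 to 29.3 CPM (-0.61, 1.14e-05).

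All 13 tested genes of the death-receptor pathway were lower (33.8% of all tested genes), 7 of them as DEGs (10.1% of all). Tnfsf10, which encodes the ligand TRAIL, went from 42.0 to 0.943 CPM (log2 fold change -5.47, edgeR adjusted p = 6.70e-15), and Tnf from 42.3 to 2.63 CPM (-4.00, 3.30e-14). Traf1, which encodes an adaptor that binds cIAP proteins, went from 38.8 to 1.14 CPM (-5.09, 1.04e-14). Fas, which encodes a death receptor and is also a p53 target, went from 111.7 to 11.5 CPM (-3.28, 4.45e-15).

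The lists that follow are read against the same background, 33.8% lower and 33.0% higher among all tested genes at an adjusted p under 0.05. The 21 other p53 target genes were mixed: 10 were lower, 4 were higher and 7 did not pass, with a median log2 fold change of -0.21. Besides Fas, Eda2r (a TNF-receptor relative) went from 53.4 to 15.4 CPM (log2 fold change -1.79, edgeR adjusted p = 1.35e-11) and Aen (a nuclease gene) from 67.0 to 29.8 CPM (-1.17, 2.84e-10). Sesn1, which encodes a stress-induced regulator of mTORC1, rose from 17.9 to 68.9 CPM (1.94, 1.80e-12). Of 16 tested regulators of p53, 6 were lower, 5 were higher and 5 did not pass, with a median of -0.11. Atm, the kinase that signals DNA breaks to p53, went from 44.3 to 19.8 CPM (-1.16, 2.42e-09), and its target kinase Chek2 from 6.30 to 18.6 CPM (1.56, 3.35e-09). The ASPP genes Ppp1r13b and Trp53bp2, whose products bind p53 and favour its death targets, each rose by a log2 fold change of 0.70 (adjusted p = 1.37e-06 and 2.15e-06).

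Of 9 mitochondrial pore and apoptosome partners, 5 were lower, 3 were higher and 1 did not pass, with a median log2 fold change of -0.44. Cycs, which encodes the cytochrome c that activates APAF1, went from 193.3 to 83.6 CPM (log2 fold change -1.21, edgeR adjusted p = 9.99e-10), and the outer-membrane channel gene Vdac3 from 277.6 to 135.4 CPM (-1.04, 1.89e-09). Slc25a5 (an ADP/ATP carrier gene) and Tomm40 (the import pore gene) had log2 fold changes of -0.52 and -0.47 (adjusted p = 4.39e-07 and 1.24e-04). Of 7 tested other BCL2-related genes, 3 were lower, 1 was higher and 3 did not pass, none as a DEG. Bnip1, Becn1 and Bnip3l, which act in autophagy or at organelle membranes, had log2 fold changes of -0.43, -0.40 and -0.23, and Bcl2l12 of 0.39 (adjusted p = 4.95e-04, 4.71e-05, 0.00338 and 0.0291). Of 5 tested other IAP genes, Birc5, the mitotic survivin gene, was higher at 10.5 and 19.9 CPM (log2 fold change 0.92, adjusted p = 7.69e-07), Birc6 was lower at 167.4 and 124.9 CPM (-0.42, 6.68e-05), and 3 did not pass.

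Promoters of the genes were searched for 3 motifs on both strands, in windows from 250 bases before to 50 bases after the gene start (RefSeq, GRCm38.p6), of which 47 belonged to 33 of the 36 genes. The FOXO core motif GTAAACA occurred in 3 of these windows (6.38%), those of Bbc3, Bcl2l11 and Mdm2, and in 3.65% of all 32851 windows. The κB motif occurred in 7 windows (14.9%; all windows 8.46%), those of Aifm1, Bbc3, Bcl2l1, Bmf, Hrk, Trp53 and Xiap. The p53 decamer occurred in 6 windows (12.8%; all windows 8.36%), those of Bax, Birc2, Bmf, Cdkn1a, Mdm2 and Trp53. A match is a run of letters and was not tested as a binding site, and genes with each motif moved in both directions. Of the p53 decamer genes, Bmf was higher and the other 5 were lower. Of the κB motif genes, Aifm1, Bbc3, Bcl2l1 and Trp53 were lower, Bmf was higher, Xiap did not pass and Hrk was not tested. Of the FOXO motif genes, Bbc3 and Mdm2 were lower and Bcl2l11 was higher. Among all tested genes, 33.8% were lower and 33.0% higher at an adjusted p under 0.05. The stretches below hold the matches in Bcl2l11 (FOXO), Bax, Mdm2 and Cdkn1a (p53 decamer), in capitals, and are shown because these genes are known targets of FOXO factors or p53 and differed between the groups. They lie at chr2:128125791-128125837 (plus), chr7:45467070-45467119 (minus), chr10:117710915-117710964 (minus), chr17:29090886-29090935 (plus) and chr17:29090908-29090957 (plus), the Cdkn1a stretches overlapping each other.
Bcl2l11: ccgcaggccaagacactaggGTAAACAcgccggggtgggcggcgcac
Bax: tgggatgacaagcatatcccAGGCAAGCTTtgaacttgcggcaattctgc
Mdm2: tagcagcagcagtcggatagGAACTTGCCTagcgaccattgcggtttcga
Cdkn1a: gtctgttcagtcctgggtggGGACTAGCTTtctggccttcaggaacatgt
Cdkn1a: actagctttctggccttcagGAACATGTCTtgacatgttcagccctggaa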

How the data were processed

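RNA-seq libraries of hypoxic NMCMs were made from 3 vehicle and 3 β-SITO samples, grouped by the sample labels. The study's methods describe paired-end sequencing on an Illumina instrument and name an ABclonal library kit, whereas the labels name an Illumina TruSeq kit. The authors deposited 1 table of raw counts per gene for all 6 libraries, and the submitters' processing notes name FastQC, HISAT2, featureCounts and GRCm39. Versions, strand and the handling of shared reads are not given in the sources used here. No per-sample column was left unused. The chi-square per degree of freedom between libraries of a group was 1.96 to 9.20, so no library was a copy of another. It was 4.72 to 7.54 between vehicle libraries. Between β-SITO libraries it was 8.69 for T4 and T5, 9.20 for T4 and T6, and 1.96 for T5 and T6. T4 thus stood apart from T5 and T6 over the tested genes too.

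Genes passing filterByExpr (14799) were tested with edgeR 4.0.16 (R 4.3.3): TMM normalization, the quasi-likelihood test with group as its only term, and Benjamini-Hochberg adjustment over all tested genes. The biological coefficient of variation was 6.52%. CPM were computed from the counts with TMM-scaled library sizes. DEGs were called as in the study's methods, at a change of more than 2-fold with an adjusted p under 0.05. The authors used DESeq2 for their own analysis. Scripts were tested on simulated data. Alternatives were DESeq2 1.42.0, limma 3.58.1, glmTreat, other scalings and count filters, mitochondrially encoded genes left out, each library left out and the summed Bcl2a1 copies. Log2 fold changes were available under 15 of these (14 for the single Bcl2a1 copies).

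Every one of the 36 genes is accounted for. From the other lists, up to 4 genes are named, those with the largest absolute log2 fold change among genes with non-overlapping groups, 100 or more counts on average and an adjusted p under 0.05. Some genes of the list of other caspases are not reported here. The genes and lists were chosen with earlier results of these data known. Coordinates are those of the deposited table. GENCODE vM21, built on GRCm38, served only for exon lengths, shared exon bases and the coding sequences, and RefSeq promoters (GRCm38.p6) for the motif search. Promoters were not used for Htra2, Bik and Pmaip1.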

Additional observations from a re-analysis of the deposited data

How the results depend on the processing

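Of the 27 genes with an adjusted p under 0.05, 20 kept their direction and call in every alternative that gave them a fold change (15, or 14 for Bcl2a1a and Bcl2a1d, which the summed copies replace). The other 7 (Bcl2l2, Bok, Bbc3, Casp2, Diablo, Aifm1 and Dffa) lost the call in at least 1, and 0 turned direction. The 11 lower DEGs numbered 11 when 1 library was left out and 10 to 11 otherwise. The 3 higher DEGs, all pro-death, numbered 2 to 3 when 1 library was left out and 1 with glmTreat, which tests against a 2-fold change and is stricter by construction. The 20 genes lower at an adjusted p numbered 16 to 17 and 15 to 20, and the 7 higher 6 to 7 and 6 to 8. The 10 lower pro-death genes numbered 6 with upper-quartile scaling, 6 with library size only and 6 to 8 when 1 library was left out; the cause was not tested. Upper-quartile scaling and library size only moved the median log2 fold change of all genes by 0.14 and 0.15. Under these scalings 3 genes that did not pass changed sign, Mcl1 (0.09 and 0.10), Bcl2a1b (0.12 and 0.12) and Xiap (0.04 and 0.04), and Casp9 passed at 0.27. When 1 library was left out, Bcl2a1b ranged from -0.27 to 0.15 and Endog from -0.62 to 0.02. The summing of the Bcl2a1 copies was chosen after seeing the data. No paired analysis was possible because the vehicle libraries are numbered 1 to 3 and the β-SITO libraries 4 to 6, so the groups share no number. Depth limits genes with few counts, such as Bcl2a1a with β-SITO (SE 0.30), Endog (SE 0.31), and Hrk, which was not tested.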
